A study of Mus musculus with 9 samples.

Results

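The 8 genes described here encode 3 Toll-like receptors (Tlr2, Tlr4 and Tlr7), the co-receptor Cd14, the adaptor Myd88, the kinases Irak1 and Irak4, and the ubiquitin ligase Traf6. They were chosen by name, and all 8 were among the 757 genes measured. RNA came from CD45+CD11b+ cells that excluded the viability dye 7-AAD, sorted out of dissociated brains of male wild-type C57BL6/J mice, 10 to 12 weeks old, and was counted on a NanoString nCounter mouse neuroinflammation panel, in which barcoded probes are counted without amplification. The 3 groups were sham-operated mice (Sham), mice sampled 24 h after a transient ischemic attack (TIA 24h) and mice sampled 3 d after it (TIA 3d), with 3 animals each. Values at 24 h and at 3 d below are those of the TIA 24h and the TIA 3d group. The attack was modelled by closing the middle cerebral artery for 5 min with a filament, while Sham mice had the surgery without the filament, and the labels do not say how long after surgery they were sampled. All brains were placed in a buffer with the transcription inhibitor actinomycin D before dissociation, and all cells passed a Percoll gradient. A later time point of the study was not analysed here.

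Toll-like receptors recognise molecules of microbes and of damaged cells. Tlr2 and Tlr4 sit at the cell surface, where Cd14 hands lipopolysaccharide and other ligands to them, and Tlr7 sits in endosomes, where it binds single-stranded RNA. All 3 receptors recruit the adaptor Myd88, which brings Irak4 and Irak1 together, and Traf6 passes the signal on to the NF-kB and mitogen-activated kinase pathways. In the brain, microglia are the main cells known to carry these receptors.

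In these data, the mean log2 level of Tlr7 rose between the time points. Tlr7 was the 1 gene of the 8 that passed an adjusted p of 0.05 in any comparison of the deposited values with equal weights. This difference was above 0 under all 19 alternative settings and passed under 11 of them. With the log2 lane total as a covariate it was 0.19 (limma adjusted p = 0.987). The counts of Tlr7 at 24 h, 6 to 11, were near the median of genes that mark other cells, so the size of its rise is uncertain. Between the time points, array weights also passed Cd14 and Irak1, in a fit that passed 41.5% of all genes, and voom passed Irak4 in one that passed 50.9%. Cd14, Tlr2, Tlr4, Myd88 and Irak1 also had their highest means at 3 d, with differences that did not pass the test. Irak4 had nearly the same mean in the 3 groups in the deposited values, which other scalings did not keep, and Traf6 had its lowest mean at 24 h. Because whole counts could be recovered from the deposited values, each gene is given as a count per lane, 1 lane being 1 animal, beside its log2 normalized count.

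The lanes differed widely in depth. Summed counts over the 757 genes were 6560 to 25582 in Sham, 7248 to 10929 in TIA 24h and 29200 to 62883 in TIA 3d, so that lane depth and the TIA 3d time point cannot be told apart. The sort was checked against microglial genes. P2ry12, a purinergic receptor of resting microglia, had 742, 197 and 13 counts in Sham lanes 1 to 3, 38, 27 and 12 in the TIA 24h lanes and 652, 596 and 438 in the TIA 3d lanes. Tmem119, a microglial membrane protein, ran from 9 to 26 counts at 24 h and from 332 to 605 at 3 d. Cx3cr1, the fractalkine receptor, stood at or above the 94.6th percentile of its lane in all 9 lanes, from 20 counts at 24 h to 1355 at 3 d. The 9 measured genes of a list of 12 microglial markers made up 2.10% to 16.8% of all counts in Sham, 1.26% to 3.36% at 24 h and 6.85% to 13.4% at 3 d. For 16 measured of 24 oligodendrocyte genes the shares were 0.778% to 6.79%, 3.24% to 6.57% and 0.412% to 0.781%, and for 14 measured of 24 blood leukocyte genes 0.403% to 1.33%, 1.05% to 1.43% and 0.202% to 0.527%. The lanes Sham 3 and all TIA 24h lanes thus held low microglial signal, and the part of these other cells in the differences below was not tested. Fewer cells of a type and less RNA per cell cannot be told apart in such samples.

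The promoter table used here (RefSeq, build GRCm38.p6) held windows from 250 bases before to 50 after the transcript start for 5 of the 8 genes, Tlr2, Myd88, Irak1, Irak4 and Traf6. They were searched on both strands of the upstream 250 bases for a pattern of GGG, 2 open bases, TT, 1 open base and CC, which resembles sites of NF-kB, the factor that ends the MyD88 pathway, and for a pattern of GAAA, 2 open bases and GAAA, which resembles sites of interferon regulatory factors. The stretches that held a match are shown because both families of factors act at the end of Toll-like receptor signalling, with the matched bases in capitals, 5′ to 3′ on the strand of the gene.
Tlr2, chr3:83841761-83841790, minus strand: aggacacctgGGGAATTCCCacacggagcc
Myd88, chr9:119340039-119340068, minus strand: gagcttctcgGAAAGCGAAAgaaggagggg
The match in Tlr2 lay 172 to 163 bases before the start and read the same on both strands, and that in Myd88 lay 40 to 31 bases before it. The first pattern occurred in such windows of 4.71% of 27025 genes and in 1 of the 5 genes, and the second in 3.46% and in 1 of the 5. A match is a description of letters and not a measured binding site.

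Tlr7, the endosomal receptor for single-stranded RNA, had 46, 16 and 9 counts in the lanes of Sham, 11, 10 and 6 in the TIA 24h lanes and 175, 41 and 203 in the TIA 3d lanes. The corresponding log2 normalized counts were 5.46, 4.13 and 4.14 in Sham, 4.12, 4.21 and 3.51 at 24 h, and 6.62, 5.13 and 6.80 at 3 d. All TIA 3d lanes lay above all TIA 24h lanes, whereas TIA 3d 2 lay below Sham 1. The mean log2 level was 4.58 ± 0.77 (SD, n = 3) in Sham, 3.94 ± 0.38 at 24 h and 6.18 ± 0.92 at 3 d. TIA 3d exceeded TIA 24h by 2.24 on the log2 scale (SE 0.53, 95% interval 1.09 to 3.39), with an adjusted p of 0.0232 in limma over all 757 genes. Since the counts at 24 h were at the background described next, the size of this difference is uncertain. Against Sham, TIA 3d was 1.60 higher (SE 0.53, 0.45 to 2.76, limma adjusted p = 0.16) and TIA 24h 0.63 lower (interval -1.79 to 0.52, limma adjusted p = 0.783), and neither passed. Without Sham 1 the latter was -0.19 and without TIA 24h 3 it was -0.42.

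The rank of Tlr7 within its lane, which no scaling of a lane can change although depth can affect it, moved in the same way. It stood at the 87.5th, 62.8th and 60.8th percentile of the 757 genes in the Sham lanes, at the 51.9th, 56.8th and 32.0th at 24 h and at the 93.7th, 83.4th and 92.2nd at 3 d. At 24 h its counts of 6 to 11 lay between 0.667 and 1.11 times the median count of 53 neuron, oligodendrocyte, astrocyte and endothelium genes of the same lane, so the level there was not separable from genes chosen to mark other cells. At 3 d this ratio was 3.73 to 18.5, and in Sham it was 1.125 to 5.11. Sham 1, at 5.11, thus stood above TIA 3d 2, at 3.73. The exact Poisson 95% intervals, which cover counting error alone, were 5.49 to 19.7 for the 11 counts of TIA 24h 1 and 176 to 233 for the 203 counts of TIA 3d 3.

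The call for Tlr7 depended on single lanes and on how depth was handled. Without TIA 24h 2, TIA 24h 3, TIA 3d 1 or TIA 3d 3 the difference between TIA 3d and TIA 24h was 2.37, 2.02, 2.02 and 1.93, with limma adjusted p of 0.062, 0.093, 0.093 and 0.083. With the log2 lane total as a covariate it was 0.19 (limma adjusted p = 0.987), and with counts scaled to the lane total it was 1.29. It was above 0 under all 19 alternative settings and past the threshold under 11 of them.

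**Figure D1:**
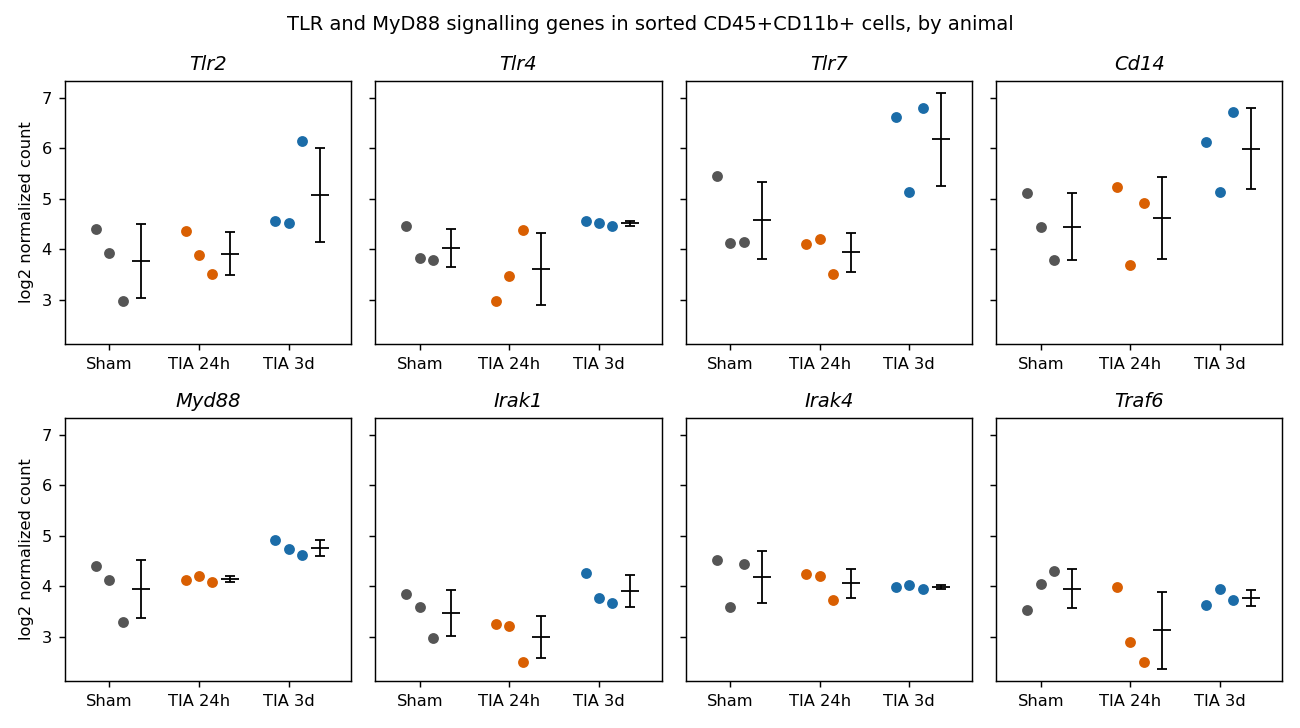
The log2 normalized count of each of the 8 genes (y axis) in Sham, TIA 24h and TIA 3d, with 1 point per animal and the group mean with its SD (n = 3) as a bar beside the points. For Tlr7 the 3 TIA 3d animals, between 5.13 and 6.80, lie above the 3 TIA 24h animals, between 3.51 and 4.21, while Irak4 means lie between 3.98 and 4.18 in all groups.

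Tlr2, the surface receptor for bacterial lipoproteins, had 22, 14 and 4 counts in the lanes of Sham, 13, 8 and 6 at 24 h and 42, 27 and 130 at 3 d. Its log2 values were 4.40, 3.93 and 2.97 in Sham, 4.36, 3.89 and 3.51 at 24 h and 4.56, 4.53 and 6.15 at 3 d. TIA 3d 3 stood far above the other TIA 3d lanes, and the lowest TIA 3d lane was only just above the highest Sham and TIA 24h lanes. The mean was 3.77 ± 0.73 (SD, n = 3) in Sham, 3.92 ± 0.43 at 24 h and 5.08 ± 0.93 at 3 d. TIA 3d was 1.31 above Sham (SE 0.53, 95% interval 0.16 to 2.46, limma adjusted p = 0.206) and 1.16 above TIA 24h (SE 0.53, 0.01 to 2.32, limma adjusted p = 0.122), and neither passed. The order of these means turned with the lane total as a covariate, where Tlr2 was 0.94 lower at 3 d than at 24 h and 0.21 lower than in Sham. Leaving out single animals gave 0.63 to 1.44 against TIA 24h and 0.77 (without TIA 3d 3) to 1.63 against Sham.

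Tlr4, the receptor for lipopolysaccharide, had 23, 13 and 7 counts in the lanes of Sham, 5, 6 and 11 at 24 h and 42, 27 and 40 at 3 d. On the log2 scale the 3 TIA 3d animals lay close together, at 4.56, 4.53 and 4.45, and the TIA 24h animals far apart, at 2.98, 3.47 and 4.38. The Sham animals, at 4.46, 3.83 and 3.78, overlapped with both. The mean was 4.02 ± 0.38 (SD, n = 3) in Sham, 3.61 ± 0.71 at 24 h and 4.51 ± 0.05 at 3 d. TIA 3d was 0.90 above TIA 24h (SE 0.44, 95% interval -0.04 to 1.85, limma adjusted p = 0.14) and 0.49 above Sham (interval -0.46 to 1.44, limma adjusted p = 0.518). Scaled to the lane total, the first of these was -0.04 and the second -0.27. Leaving out single animals, the first ran from 0.59 (without TIA 24h 1) to 1.29 (without TIA 24h 3). By rank within its lane, Tlr4 stood at the 70.6th, 73.0th and 68.5th percentile at 3 d and as high as the 71.4th, in TIA 24h 3, at 24 h, so the groups overlapped on that scale.

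Cd14, the co-receptor, had 36, 20 and 7 counts in the lanes of Sham, 24, 7 and 16 at 24 h and 124, 41 and 192 at 3 d. The log2 values were 5.11, 4.45 and 3.78 in Sham, 5.24, 3.69 and 4.92 at 24 h and 6.12, 5.13 and 6.72 at 3 d. All TIA 3d lanes lay above all Sham lanes, by a margin of 5.13 against 5.11 at the nearest, while TIA 24h 1 lay above TIA 3d 2. The mean was 4.45 ± 0.66 (SD, n = 3) in Sham, 4.62 ± 0.82 at 24 h and 5.99 ± 0.80 at 3 d. TIA 3d was 1.54 above Sham (SE 0.55, 95% interval 0.35 to 2.73, limma adjusted p = 0.165) and 1.37 above TIA 24h (SE 0.55, 0.18 to 2.56, limma adjusted p = 0.087). Neither passed. Within lanes, Cd14 already stood at the 89.0th and 90.1st percentile in TIA 24h 1 and TIA 24h 3, against the 90.1st, 83.4th and 91.5th at 3 d, and at the 32.9th in TIA 24h 2. With the lane total as a covariate the difference between TIA 3d and TIA 24h was -0.75. Leaving out single animals, it ran from 0.91 (without TIA 24h 2) to 1.80 (without TIA 3d 2).

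Myd88, the adaptor shared by the 3 receptors, had 22, 16 and 5 counts in the lanes of Sham, 11, 10 and 9 at 24 h and 54, 31 and 45 at 3 d. On the log2 scale it was 4.40, 4.13 and 3.30 in Sham, 4.12, 4.21 and 4.09 at 24 h and 4.92, 4.73 and 4.62 at 3 d. The TIA 3d animals lay above all others, and both groups after the attack were tight, with means of 4.14 ± 0.06 (SD, n = 3) at 24 h and 4.76 ± 0.15 at 3 d against 3.94 ± 0.57 in Sham. The difference of TIA 3d was 0.82 from Sham (SE 0.40, 95% interval -0.05 to 1.69, limma adjusted p = 0.28) and 0.62 from TIA 24h (SE 0.40, -0.25 to 1.49, limma adjusted p = 0.269). Without Sham 3 the first of these was 0.49. Scaled to the lane total, the difference between TIA 3d and TIA 24h was -0.33.

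Irak4 is the kinase that starts the signal below Myd88, and Irak1 is its substrate. Irak4 had 24, 11 and 11 counts in the lanes of Sham, 12, 10 and 7 at 24 h and 28, 19 and 28 at 3 d. Its mean log2 level was 4.18 ± 0.52 (SD, n = 3) in Sham, 4.06 ± 0.29 at 24 h and 3.98 ± 0.04 at 3 d. The groups overlapped in all comparisons, and the 3 TIA 3d animals, at 3.97, 4.02 and 3.94, lay between the lowest and the highest animals of both other groups. From Sham, Irak4 differed by -0.12 at 24 h and by -0.20 at 3 d, and the time points differed by -0.08, with 95% intervals of -0.99 to 0.75, -1.07 to 0.67 and -0.95 to 0.79, so falls of about 1 on the log2 scale lay within or close to these intervals. After scaling to lane totals the differences were -0.96 from Sham at 3 d and -1.03 between the time points, and with voom on the recovered counts the latter was -1.10 with a limma adjusted p of 0.045, a call that the deposited values did not give. That fit passed 385 of 757 genes (50.9%), and the median of all genes was -1.30 there and -1.19 after scaling to lane totals, so Irak4 lay 0.19 and 0.17 above these medians.

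Irak1 had 15, 11 and 4 counts in the lanes of Sham, 6, 5 and 3 at 24 h and 34, 16 and 23 at 3 d. Its log2 values were 3.85, 3.59 and 2.97 in Sham, 3.24, 3.21 and 2.51 at 24 h and 4.25, 3.77 and 3.66 at 3 d. The TIA 3d animals lay above the TIA 24h animals and overlapped with Sham. TIA 3d was 0.91 above TIA 24h (SE 0.42, 95% interval 0.01 to 1.81, limma adjusted p = 0.122), which did not pass, and this was -0.04 after scaling to lane totals. The TIA 24h counts of Irak1 were 0.333 to 0.556 times the marker median of their lanes, and those at 3 d were 1.45 to 2.27 times it.

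Traf6, the ligase below the kinases, had 12, 15 and 10 counts in the lanes of Sham, 10, 4 and 3 at 24 h and 22, 18 and 24 at 3 d. Its log2 values were 3.52, 4.03 and 4.30 in Sham, 3.98, 2.89 and 2.51 at 24 h and 3.63, 3.94 and 3.72 at 3 d. TIA 24h 1 lay among the Sham animals and the other TIA 24h animals below all of them. TIA 24h was 0.83 below Sham (SE 0.45, 95% interval -1.80 to 0.15, limma adjusted p = 0.722), which did not pass. The TIA 24h counts of Traf6 were 0.909, 0.444 and 0.333 times the marker median of their lanes, so the size of this difference is uncertain. TIA 3d was 0.64 above TIA 24h (SE 0.45, -0.34 to 1.61, limma adjusted p = 0.299) and 0.19 below Sham (limma adjusted p = 0.832). Leaving out TIA 24h 1 moved the difference between the time points to 1.07 and that of TIA 24h from Sham to -1.26, and leaving out TIA 24h 3 moved them to 0.33 and -0.52, none of which passed.

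**Figure D2:**
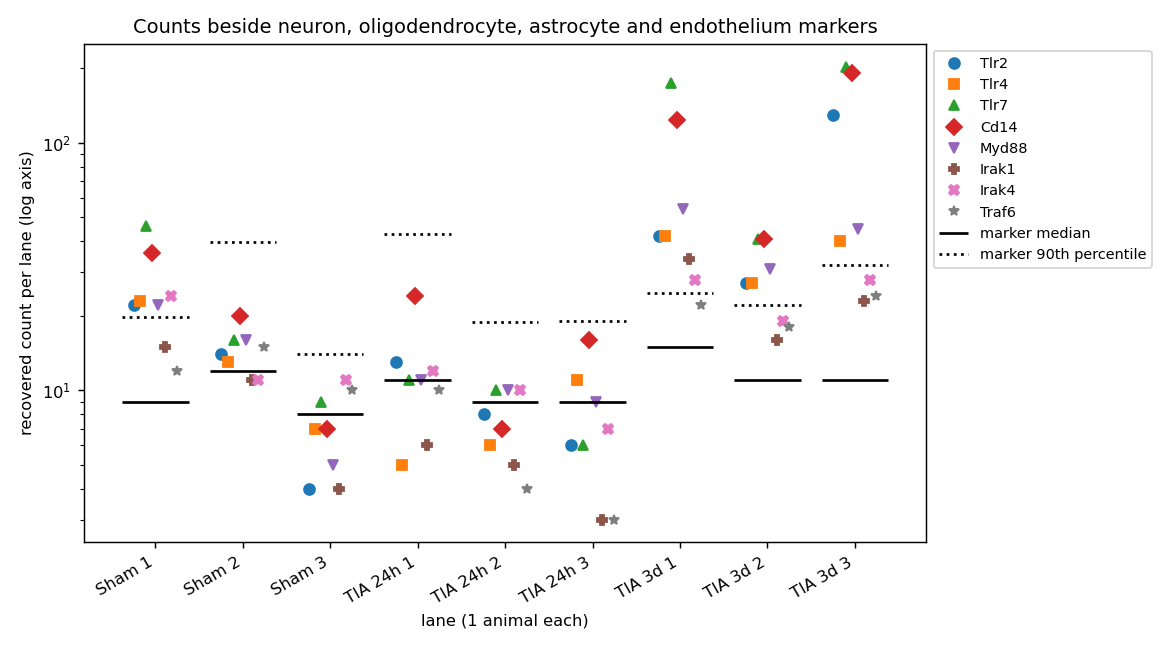
The recovered count (y axis, log scale) of each of the 8 genes in the 9 lanes, beside the median (solid line) and the 90th percentile (dotted line) of 53 genes that mark neurons, oligodendrocytes, astrocytes and endothelium in the same lane. All 8 genes lie above the median line in the 3 TIA 3d lanes, and only 2 or 3 of the 8 do so in each TIA 24h lane.

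The lane background bore on all 8 genes. Whether the sorted cells lack all of its marker genes was not tested. The 19 neuron genes among them summed to 135 to 172 counts at 24 h and to 420 to 652 in the deeper TIA 3d lanes. In the TIA 3d lanes 8 of 8 counts were above the marker median, and 7, 5 and 5 were above the marker 90th percentile. In the TIA 24h lanes 3, 3 and 2 counts were above the median and 0 above the 90th percentile. Without the 16 oligodendrocyte genes, which were high in some of these lanes, the 90th percentile was passed by 1, 0 and 1 of the 8 at 24 h, by 6, 1 and 0 in Sham and by 7, 5 and 6 at 3 d. Sham lanes lay across this range, with 8, 6 and 3 above the median and 6, 0 and 0 above the 90th percentile. The summed counts of the 8 genes were 200, 116 and 57 in Sham, 92, 60 and 61 at 24 h and 521, 220 and 685 at 3 d. As a share of all counts, however, the sums were much alike, at 0.782%, 0.779% and 0.869%, at 0.842%, 0.757% and 0.842%, and at 1.01%, 0.753% and 1.09%, and the TIA 3d lanes overlapped with both other groups.

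TIA 24h against Sham asks what had changed 24 h after the attack. None of the 8 genes passed in limma (0 of 757 genes, 0%), none had an unadjusted p under 0.05 (7.53% of all genes) and none had groups that did not overlap (9.78% of all genes). Their differences ran from -0.83 for Traf6 to 0.20 for Myd88, with 3 of 8 above 0 against 60.9% of all genes, and their median was -0.27 against 0.15 over all genes. Leaving out single animals, the median of the 8 ran from -0.42 (without Sham 2) to -0.07 (without Sham 1). Between 1 of 8 (without Sham 3 or TIA 24h 1) and 4 of 8 (without Sham 1 or TIA 24h 3) then lay above 0. By rank within the lane, Tlr7 alone did not overlap and was lower at 24 h, 1 of 8 where 9.64% of all genes did not overlap in either direction. The nearest lanes were Sham 3, with 9 counts at the 60.8th percentile, and TIA 24h 2, with 10 counts at the 56.8th. This rank difference thus rests on nearly equal counts at the lane background. Under the 19 alternatives none of the 8 passed.

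TIA 3d against Sham asks what differed later. Again none of the 8 passed (0 of 757 genes, 0%), and 3 had an unadjusted p under 0.05, namely Tlr7, Cd14 and Tlr2, where 19.6% of all genes did and 13.3% did so upwards. In Cd14, Tlr2 and Myd88 the TIA 3d animals lay above all Sham animals, as in 15.1% of all genes. By rank within the lane, 0 of 8 genes were without overlap in this comparison (16.8% of all genes). Without Sham 1, the deepest Sham lane, the difference of Tlr7 was 2.05 with a limma adjusted p of 0.028, in a fit that passed 11.1% of all genes. Leaving out any other single animal passed none of the 8 in this comparison. The median difference of the 8 genes was 0.65 against -0.01 over all genes, and 6 of 8 lay above 0, where 49.5% of all genes did. Scaled to the lane total it was -0.10 and with voom -0.11, with 4 of 8 above 0 in each. The medians of all genes were then -0.77 and -0.72. With the lane total as a covariate the median of the 8 was 0.04, and without Sham 3 it was 0.43. The F test over the 3 groups, which asks for any difference, passed none of the 8 genes (0 of 757 genes, 0%), with the smallest limma adjusted p at 0.0533 for Tlr7, and Tlr7 and Cd14 had an unadjusted p under 0.05, where 31% of all genes did.

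TIA 3d against TIA 24h compares the time points, and it is also the test of whether the changes against Sham differed between them. Tlr7 passed, 1 of 8 genes where 19.2% of all genes passed and 11.6% passed upwards. Tlr7, Cd14, Tlr2 and Irak1 had an unadjusted p under 0.05 (40.2% of all genes, 19.4% upwards), and in Tlr2, Tlr4, Tlr7, Myd88 and Irak1 the TIA 3d animals lay above all TIA 24h animals, 5 of 8 genes where 22.1% of all genes did so upwards and 26.3% downwards. The median difference was 0.91 for the 8 genes and -0.25 over all genes, all 8 lay above the latter, and 7 of 8 lay above 0, where 42.1% of all genes did. By rank within the lane, which is free of scaling, Tlr2, Tlr7, Myd88, Irak1 and Traf6 did not overlap between the time points, each higher at 3 d, as did 18% of all genes. Rank is not free of depth, however. At 24 h Irak1 had 3 to 6 counts and Traf6 3 to 10. In TIA 24h 3, the 6 counts of Tlr2 stood at the 32.0th percentile and the 9 of Myd88 at the 58.0th. How far this separation of shallow from deep lanes rests on few counts was not tested.

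**Figure D3:**
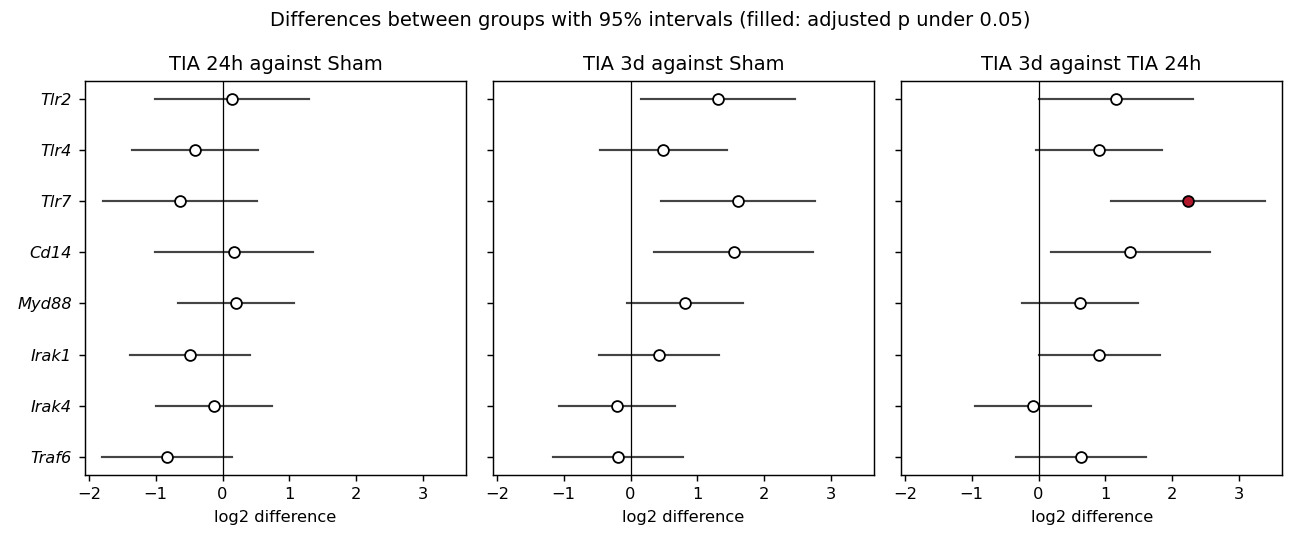
Differences in log2 normalized count (x axis) with 95% intervals from the limma fit for each of the 8 genes in the 3 comparisons, filled where the adjusted p over all 757 genes was under 0.05. Tlr7 in TIA 3d against TIA 24h, at 2.24, is the single filled point, and all 8 intervals in TIA 24h against Sham hold 0.

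The differences depended on the scaling. From the lane factors alone, a gene with the same count in all lanes would have shown a log2 difference from Sham of 0.47 at 24 h and of -0.99 at 3 d, and one of -1.46 between the time points. Scaling to the lane total moved the median of all genes in TIA 3d against TIA 24h from -0.25 to -1.19 and that of the 8 genes from 0.91 to -0.04, and centring each lane on its median moved them to 0.09 and 1.24. Relative to the median of all genes, 8 of 8 genes were higher on the later day. Neither of these scalings can change this comparison, so their agreement was fixed in advance and is no check. The gene at the median had 11, 9 and 8 counts in the TIA 24h lanes, beside marker medians of 11, 9 and 9, and thus lay near background there. The same count of 8 of 8 came from quantile normalization and from voom on the recovered counts, which also scales by the lane total. With low genes left out it was 7 of 8, and with the lane total as a covariate 3 of 8.

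**Figure D4:**
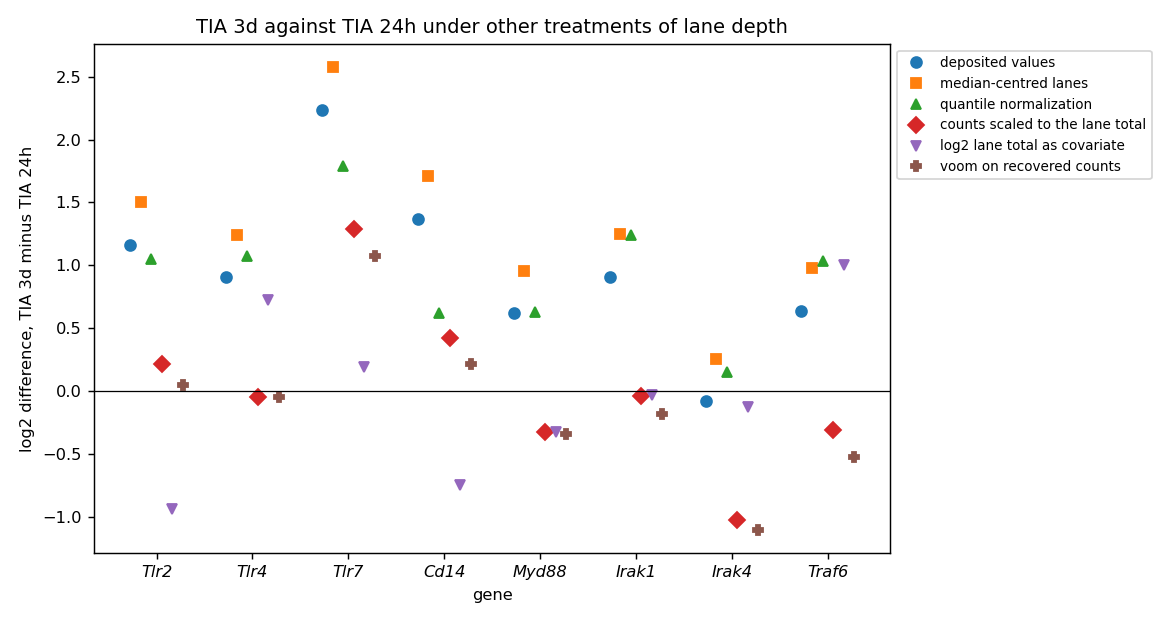
The log2 difference between TIA 3d and TIA 24h (y axis) of each of the 8 genes in the deposited values and under 5 other treatments of lane depth. Tlr7 lies above 0 in all 6, from 0.19 to 2.58, while each of the other 7 genes changes sign with the treatment.

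A comparison of genes within a lane is also free of the lane factor, but not of lane depth where counts are low. Set against Irak4 in the same lane, the log2 difference of Tlr7 was 0.94, 0.54 and -0.29 in Sham, -0.13, 0.00 and -0.22 at 24 h and 2.64, 1.11 and 2.86 at 3 d. The TIA 3d lanes lay above all other lanes. Set against Tlr4, however, Tlr7 stood at 1.00, 0.30 and 0.36 in Sham, at 1.14, 0.74 and -0.87 at 24 h and at 2.06, 0.60 and 2.34 at 3 d, and TIA 3d 2 lay below 1 Sham lane and 2 of the TIA 24h lanes, so the separation depended on the gene it was set against. For Cd14 against Irak4 the groups also overlapped, with 1.11 in TIA 3d 2 and 1.19 in TIA 24h 3. For Myd88 against Irak4 the TIA 3d lanes, at 0.95, 0.71 and 0.68, also lay above the Sham lanes, at -0.13, 0.54 and -1.14, and the TIA 24h lanes, at -0.13, 0.00 and 0.36. At 24 h Tlr7, Irak4 and Myd88 stood at 0.667 to 1.11, 0.778 to 1.11 and 1.00 to 1.11 times the marker median of their lanes. Their differences at 24 h are thus between counts at background, and the separation from the deeper TIA 3d lanes was not tested apart from depth. The values describe pairs of genes and say nothing of which gene of a pair has the higher level, because probes differ in efficiency.

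Of 59 further genes of the Toll-like receptor pathway that were listed, 22 were measured. Between TIA 24h and TIA 3d, 5 of them rose and 1 fell, where 11.6% of all genes passed upwards and 7.53% downwards, and between either time point and Sham none passed in limma. No gene of the panel, these and the genes of the next list included, passed between the time points with the lane total as a covariate, with an ordinary linear model, or without TIA 24h 2, TIA 24h 3, TIA 3d 1 or TIA 3d 3, and 7 of 757 genes passed after quantile normalization. Jun and Fos, which together form the AP-1 factor, rose by 2.35 (SE 0.58, limma adjusted p = 0.0245) and by 2.68 (SE 0.80, limma adjusted p = 0.039). Jun had 36, 24 and 17 counts at 24 h and 397, 278 and 369 at 3 d. Fos had 51, 11 and 24 counts at 24 h and 508, 300 and 489 at 3 d. In both genes all TIA 3d animals lay above all others, and Sham was wide, from 14 to 190 counts of Jun and from 5 to 157 counts of Fos.

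Of the NF-kB subunit and inhibitor genes of the list, the subunit genes Rela and Nfkb2 and Nfkbia, which encodes the inhibitor that NF-kB itself induces, passed. Nfkb1, Relb and Nfkbie did not, with differences of 0.48, 0.26 and 0.73 and limma adjusted p of 0.385, 0.715 and 0.232, and are named after their values were seen. Rela rose by 2.19 (limma adjusted p = 0.0304), from 3, 1 and 5 counts to 35, 17 and 50. Nfkb2 rose by 1.62 (limma adjusted p = 0.0455), from 5, 3 and 4 counts to 32, 32 and 36. Nfkbia rose by 1.89 (limma adjusted p = 0.0474), from 8, 7 and 4 counts to 75, 34 and 94. The TIA 24h counts of Rela, Nfkb2 and Nfkbia were 8 or fewer in each lane, below the marker median of the lane, so the sizes of these rises are uncertain as well. A count of 1, as of Rela in TIA 24h 2, may stand for a 0 that was replaced before deposit, which is unknown, and this holds for all counts of 1 given here.

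Irak3, an inhibitory relative of Irak1, fell by 1.68 (SE 0.39, limma adjusted p = 0.0229) in the normalized values. Its counts were 11, 9 and 8 at 24 h and 9, 7 and 8 at 3 d, thus nearly the same in lanes of very different depth, and the fall was near the -1.46 that the lane factors alone gave a gene of equal counts. Irak2, a further kinase of the family and not past the threshold, had 6, 11 and 6 counts at 24 h and 88, 29 and 83 at 3 d, a difference of 1.56 (SE 0.54, limma adjusted p = 0.0556) in which the groups did not overlap. It is named outside the rule, after its values were seen. The median difference of the 22 genes between TIA 3d and TIA 24h was 0.53.

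Against Sham, the pathway genes with the smallest p at 3 d were Nfkbia, Nfkb2 and Fos, at 3.44, 2.21 and 2.60 above Sham with limma adjusted p of 0.0558, 0.114 and 0.158. Nfkbia had 12, 2 and 1 counts in Sham. At 24 h they were Rela, Nfkbia and Ripk1, at -1.95, 1.55 and 0.92 from Sham with limma adjusted p of 0.617, 0.647 and 0.722. None of these passed. At an unadjusted p under 0.05, 5 of the 22 genes were higher and 2 lower at 3 d, where 13.3% of all genes were higher and 6.21% lower. At 24 h 1 was higher and 1 lower, where 4.89% and 2.64% of all genes were.

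Of 27 listed genes known to be induced through Toll-like receptors, 16 were measured. Between TIA 24h and TIA 3d, 4 rose and 2 fell, beside 11.6% and 7.53% of all genes. Il1a, which encodes interleukin 1 alpha, rose by 4.45 (SE 0.82, limma adjusted p = 0.0229), from 9, 1 and 1 counts to 134, 80 and 184. The counts at 24 h lay below the marker medians of 11, 9 and 9 in those lanes, and 2 of them were at the lowest count of the table, so the size of this rise is uncertain. The chemokine genes Ccl3 and Ccl4 rose by 2.60 (SE 0.74, limma adjusted p = 0.0373) and by 1.88 (SE 0.59, limma adjusted p = 0.0455). Nlrp3, the sensor of an inflammasome, rose by 1.52 (SE 0.49, limma adjusted p = 0.0474), from 12, 7 and 13 counts to 133, 41 and 99. In these 4 genes all TIA 3d animals lay above all TIA 24h animals.

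The genes that fell were Ccl5, a chemokine of T cells and other leukocytes, and Il1b, which encodes interleukin 1 beta. Ccl5 fell by 1.96 (SE 0.46, limma adjusted p = 0.0229), with 7, 6 and 8 counts at 24 h and 4, 3 and 10 at 3 d, few counts in all lanes. Il1b fell by 1.77 (SE 0.58, limma adjusted p = 0.0494), with 19, 8 and 17 counts at 24 h and 24, 3 and 19 at 3 d, in lanes that were deeper at 3 d. Both falls are to be read against the -1.46 that the lane factors alone gave a gene of equal counts. Against Sham none of the 16 genes passed in limma. Ccl4, Ccl3 and Cd86 had the smallest p at 3 d, at 2.90, 3.36 and 1.86 above Sham with limma adjusted p of 0.1, 0.1 and 0.158, and Il1a, Il1b and Marco at 24 h, at -2.33, 1.33 and 1.11 from Sham with limma adjusted p of 0.647, 0.647 and 0.668. At an unadjusted p under 0.05, 7 of the 16 genes were higher and 3 lower at 3 d (all genes 13.3% and 6.21%), and 1 was higher and 1 lower at 24 h (all genes 4.89% and 2.64%). The median difference of the 16 genes between TIA 3d and TIA 24h was 0.54.

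The genes whose pattern over the 9 lanes was nearest to each of the 8 were found from the root mean square of the log2 difference after each gene was centred on its mean, a description in which all genes share the same lanes and their depths. Nearest to Tlr7 were Man2b1 (0.349) and Tcirg1 (0.390), and nearest to Tlr2 were Ifi30 (0.177) and Ptms (0.348). Nearest to Tlr4 were Tnfrsf1b (0.284) and Kdm5a (0.289), and nearest to Cd14 were Srgn (0.310) and Rpl9 (0.315). Myd88 lay nearest to Eef2k (0.216) and Syk (0.252), Irak1 to Brd2 (0.189) and Tnfrsf1a (0.256), Irak4 to Ulk1 (0.246) and Mvp (0.247), and Traf6 to Pik3r2 (0.295) and Bnip3l (0.338). Among the 8 genes themselves the nearest pair was Myd88 and Irak1 (0.347), followed by Tlr4 and Myd88 (0.469) and by Tlr2 and Cd14 (0.486), and Tlr7 stood apart, with Tlr2 as its nearest at 0.664.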

How the data were processed

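The authors normalized the counts of each lane to the geometric mean of housekeeping probes chosen by geNorm (ROSALIND) and deposited log2 values for 757 genes in 9 samples, 65 ng of RNA each. Per the methods, genes below the highest negative control were left out. Whether that holds for the deposited table was not stated, its lowest recovered count is 1, and whether counts of 0 were raised to 1 is unknown. Groups were read from the titles. Whole counts were recovered from the step of each lane, within 0.01 for 100% of the values. All genes were fitted with a mean per group in limma 3.58.1 (R 4.3.3, lmFit, eBayes) and adjusted by Benjamini-Hochberg over 757 genes at 0.05, and the code was tested on simulated data. The members and lists were chosen with earlier results of these data known. Named were the 8 members, list genes past the threshold (otherwise the 3 with the smallest p), P2ry12, Tmem119 and Cx3cr1, and the 2 genes most like each member. An F test over the 3 groups passed none of the 757 genes (235 at an unadjusted p under 0.05). The other settings, 19 in all, were other scalings, filters, covariates and variance models and leaving out each animal. The S0 term and permutation-based FDR of the methods were not run. With 3 animals against 3, an exact permutation test cannot go below 0.1.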

Additional observations from a re-analysis of the deposited data

Results flagged for a closer look

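The change of Tlr7 against Sham differed between the time points. It was -0.63 on the log2 scale at TIA 24h and 1.60 at TIA 3d, and the test of the difference itself, which is TIA 3d against TIA 24h, gave 2.24 (SE 0.53, limma adjusted p = 0.0232), with 3 of 3 TIA 3d animals above all TIA 24h animals. The counts at TIA 24h, 6 to 11, lay between 0.667 and 1.11 times the median of genes that mark other cells, so the size of the difference is uncertain. The TIA 3d lanes were also the deepest of the 9, and the difference was 1.29 with counts scaled to the lane total and 0.19 with the log2 lane total as a covariate.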

How the results depend on the processing

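The F test over the 3 groups passed 0 of the 8 genes in the deposited values, 1 (Tlr7) with median-centred lanes, with low genes left out and with an intensity trend and robust prior (6.87%, 7.04% and 6.61% of all genes), and 2 (Cd14 and Tlr7) with array weights (39% of all genes). Array weights also passed 2 genes (Cd14 and Tlr7) in TIA 3d against Sham (23% of all genes) and 3 (Cd14, Irak1 and Tlr7) in TIA 3d against TIA 24h (41.5%). In the latter, quantile normalization, the log2 lane total as a covariate and an ordinary linear model each passed 0 genes, with adjusted p for Tlr7 of 0.0735, 0.987 and 0.0999, and voom on the recovered counts, which passed 50.9% of all genes, passed 1, which was Irak4 (-1.10, limma adjusted p = 0.045) and not Tlr7 (1.07, limma adjusted p = 0.104). Leaving out 1 animal gave 0 to 1 genes in the F test (1 without Sham 1 and without Sham 3, in fits that passed 18% and 16.6% of all genes), 0 in TIA 24h against Sham, 0 to 1 in TIA 3d against Sham (1 without Sham 1, with 11.1% of all genes) and 0 to 1 in TIA 3d against TIA 24h (0 without TIA 24h 2, TIA 24h 3, TIA 3d 1 or TIA 3d 3). With the replicate number as a block, the F test passed 1 gene (Tlr7, with 7.13% of all genes) and no other call changed. Over 9 pairs of same-numbered lanes the correlation of deviations ran from -0.24 to 0.27 and passed 0.1 in 5, so the numbers were not taken to pair the animals.

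Differences that changed sign were the following, and the cause was not tested. With median-centred lanes, TIA 24h against Sham gave -0.034 for Tlr2 and -0.0095 for Cd14, and TIA 3d against TIA 24h 0.26 for Irak4. With quantile normalization these were -0.058 for Tlr2 and 0.15 for Irak4. With array weights, TIA 24h against Sham gave -0.014 for Tlr2 and 0.26 for Irak4, and TIA 3d against Sham 0.19 for Irak4. With counts scaled to the lane total, TIA 24h against Sham gave 0.068 for Irak4, TIA 3d against Sham -0.27 for Tlr4 and -0.33 for Irak1, and TIA 3d against TIA 24h -0.044 for Tlr4, -0.33 for Myd88, -0.039 for Irak1 and -0.31 for Traf6. With voom these were 0.21 for Irak4, -0.25 for Tlr4 and -0.38 for Irak1, and -0.045 for Tlr4, -0.34 for Myd88, -0.18 for Irak1 and -0.52 for Traf6. With the lane total as a covariate, TIA 3d against Sham gave -0.21 for Tlr2, -0.25 for Irak1 and 0.075 for Traf6, and TIA 3d against TIA 24h -0.94 for Tlr2, -0.75 for Cd14, -0.33 for Myd88 and -0.029 for Irak1. Leaving out 1 animal, TIA 24h against Sham ran from -0.25 to 0.46 for Tlr2, from -0.16 to 0.63 for Cd14, from -0.12 to 0.43 for Myd88 and from -0.42 to 0.049 for Irak4, and TIA 3d against TIA 24h from -0.25 to 0.010 for Irak4. At TIA 24h the members had 3 to 24 counts per lane, which limits what could be detected there.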
